A study of Mus musculus with 6 samples.

Results

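The AP-1 transcription factor is a family of subunits, of which 7 were followed here: the Fos subunits Fos, Fosb and Fosl2, the Jun subunits Jun, Junb and Jund, and Atf3 of the Atf subunits. They were chosen by name, as every probe set of the array annotated to these 7 symbols, and are 7 of the 8251 genes that could be named. RNA came from whole uteri of ovariectomised mice given estradiol or vehicle, and each group was 1 pool of uteri read on 1 Affymetrix U74Av2 array. The tissue was taken 1, 6, 12 or 24 h after estradiol, and the array labelled 3 h is given apart because its tissue markers go against its label, as described below.

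All 6 groups were C57Bl/6 females, 10 to 11 weeks old, without ovaries and killed 7 days after their removal. The 5 estradiol groups received 0.05 µg of estradiol (E2) per mouse under the skin, and were killed 1, 3, 6, 12 or 24 h later. The vehicle group received the solvent alone and was killed 24 h later. Vehicle animals killed at the earlier times were not analysed here, so at 1, 6 and 12 h a response to being injected and a response to estradiol cannot be told apart. The labels mention 10 mice without saying whether that is per group, and do not give the number of uteri in a pool. With 1 array per group no error could be estimated, so no SD, interval or test accompanies any value, and genes are counted where they differ by at least 2-fold. In a whole organ, fewer cells of a type and less RNA per cell cannot be told apart.

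AP-1 binds DNA as a pair of subunits held together by leucine zippers. Fos subunits do not pair with each other and need a Jun subunit, whereas Jun subunits pair among themselves, with Fos subunits and with Atf subunits. Fos, Fosb, Jun, Junb and Atf3 are immediate early genes, transcribed within minutes of a growth factor, a stress or a steroid signal and silenced soon after, and Fos in the uterus of ovariectomised rodents is a long-known early target of estradiol. The dimers bind the AP-1 site or the related cAMP response element, and the estrogen receptor can also act through AP-1 at such sites.

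The promoters of the members differ in the short motifs through which such signals act, and those of the 5 members with a match to the core of the cAMP response element or to its Jun-type variant are shown here. They are RefSeq sequences of the mouse build GRCm38.p6, each 300 bases from 250 before the annotated start, written 5′ to 3′ on the gene's own strand. Capitals mark TGACG, the core of the cAMP response element, read on either strand, and TGACNTCA, the Jun-type site; the full element TGACGTCA would be a match to both.
Fos: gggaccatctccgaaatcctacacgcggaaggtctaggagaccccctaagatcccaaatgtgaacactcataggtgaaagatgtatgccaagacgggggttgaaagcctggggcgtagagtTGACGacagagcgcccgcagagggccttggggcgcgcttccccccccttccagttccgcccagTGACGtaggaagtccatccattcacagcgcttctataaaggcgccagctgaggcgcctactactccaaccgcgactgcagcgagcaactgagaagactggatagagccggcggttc
Fosb: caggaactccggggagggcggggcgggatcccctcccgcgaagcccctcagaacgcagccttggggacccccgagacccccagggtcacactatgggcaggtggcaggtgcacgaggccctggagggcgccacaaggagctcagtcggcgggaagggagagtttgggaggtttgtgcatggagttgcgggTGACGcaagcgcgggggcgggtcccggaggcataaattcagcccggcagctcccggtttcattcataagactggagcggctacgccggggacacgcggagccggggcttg
Jun: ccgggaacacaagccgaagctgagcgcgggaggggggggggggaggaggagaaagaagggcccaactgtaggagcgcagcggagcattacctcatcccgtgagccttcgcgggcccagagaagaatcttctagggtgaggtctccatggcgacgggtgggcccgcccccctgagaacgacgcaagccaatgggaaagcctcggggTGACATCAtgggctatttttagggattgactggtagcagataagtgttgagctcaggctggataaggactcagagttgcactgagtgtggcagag
Junb: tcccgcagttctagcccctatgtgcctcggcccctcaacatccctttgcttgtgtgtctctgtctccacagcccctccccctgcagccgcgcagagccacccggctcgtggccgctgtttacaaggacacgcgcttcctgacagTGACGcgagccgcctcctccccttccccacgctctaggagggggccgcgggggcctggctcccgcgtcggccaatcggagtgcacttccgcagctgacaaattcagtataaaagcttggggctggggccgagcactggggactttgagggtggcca
Atf3: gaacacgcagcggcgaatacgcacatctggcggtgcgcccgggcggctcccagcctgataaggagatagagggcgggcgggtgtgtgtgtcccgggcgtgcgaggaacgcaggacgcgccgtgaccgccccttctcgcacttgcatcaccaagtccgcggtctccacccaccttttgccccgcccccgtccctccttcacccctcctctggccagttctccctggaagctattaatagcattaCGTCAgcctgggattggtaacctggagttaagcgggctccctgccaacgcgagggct

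The windows lie at chr12:85473640-85473939 on the plus strand for Fos, chr7:19309996-19310295 on the minus strand for Fosb, chr4:95052173-95052472 on the minus strand for Jun, chr8:84978699-84978998 on the minus strand for Junb and chr1:191183284-191183583 on the minus strand for Atf3. TGACG began 129 and 66 bases before the annotated start of Fos, 60 before that of Fosb and 106 before that of Junb, and stood on the opposite strand 7 bases before that of Atf3. At least 1 match to TGACG occurs in 20.8% of all 32851 RefSeq windows of this length, and 4 of the 7 members had it. The Jun window held TGACATCA 45 bases before the start, a form also known from the human JUN promoter, where Jun protein acts on its own gene. Matches to TGACNTCA occur in 8.83% of all windows. The full TGACGTCA, in 1.79% of windows, the AP-1 site TGANTCA, in 7.81%, and the estrogen response element GGTCANNNTGACC, in 0.07%, had no match in the 7 member windows. The CArG box, the serum response motif of immediate early genes, also had none there and is found in 1.63% of windows. Sequence further upstream than the windows was not searched, so a window without a match does not mean that its gene lacks the motif. A GC box, GGGCGG, was present in 5 of the 7 members, against 35.7% of all windows, and CCAAT in 3, against 37.4%. The member windows held 58.7% to 68.3% G and C, except that of Jund with 46.7%, against a median of 52.7% over all windows. The part of this content in the counts of GGGCGG and TGACG was not tested. TATAAA, in 13.6% of all windows, began 33 bases before the start of Fos and at the annotated start of Junb. Both strands were searched for each motif, a match is a description of letters and not of binding, and the arrays measured RNA and not promoters.

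The values are MAS5 signal intensities, in which each probe set, a group of short oligonucleotides, has 1 value per array on a linear scale. Signals under a floor of 142.8 were treated as not measured, and a ratio was taken on the log2 scale after low values had been raised to the floor. Between 58.8% and 61.7% of probe sets reached the floor on an array, a share that the floor's percentile largely sets. The 7 genes were read by 11 probe sets, each annotated to 1 gene, with 2 for Fos, 2 for Junb and 3 for Atf3. Of these, 7 reached the floor on every array, 2 on all but the array labelled 3 h, and 2 on none. The brightest probe set represents its gene, and levels are compared only within a probe set.

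The markers of uterine epithelium and smooth muscle were readily measured on the vehicle, 1, 6, 12 and 24 h arrays, and most were low on the array labelled 3 h. There, 11 of 12 epithelial markers were at least 2-fold lower than with vehicle, their summed signal being 956 against 14089 on the vehicle array, and 6 of 7 smooth muscle markers were lower, with a sum of 3904 against 37618. Of 10 stromal markers measured, 6 were lower, among them Hoxa11, a defining gene of uterine stroma, at 14.6, below the floor, against 2662 with vehicle, while the collagen genes Col1a1 and Col1a2 were higher and the list's summed signal was 74712 against 63291. Of 8 endothelial markers only 1 was lower, with a sum of 6021 against 6718. All 6 granulocyte markers were higher, with a sum of 87111 against 3398, although Ltf among them is also a uterine estrogen target, and so were all 6 skeletal muscle markers, with a sum of 50046 against 744. Of all measured genes, 13% were at least 2-fold lower than with vehicle on the array labelled 3 h and 11.4% higher. Across genes, Spearman's rho of this array with the others was 0.843 to 0.857, and among the other 5 it was 0.929 to 0.968. On the 1, 6, 12 and 24 h arrays the summed epithelial signal was 12402, 13925, 15102 and 19985, against 14089 with vehicle, and the summed stromal signal 55533, 37695, 52357 and 86417, against 63291. The summed signal of 3 pancreatic acinar markers was 1133, 405, 1054 and 787 on these arrays, against 2865 on the vehicle array, which was the highest of the 6. Their part in the differences from vehicle was not tested.

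**Figure D1:**
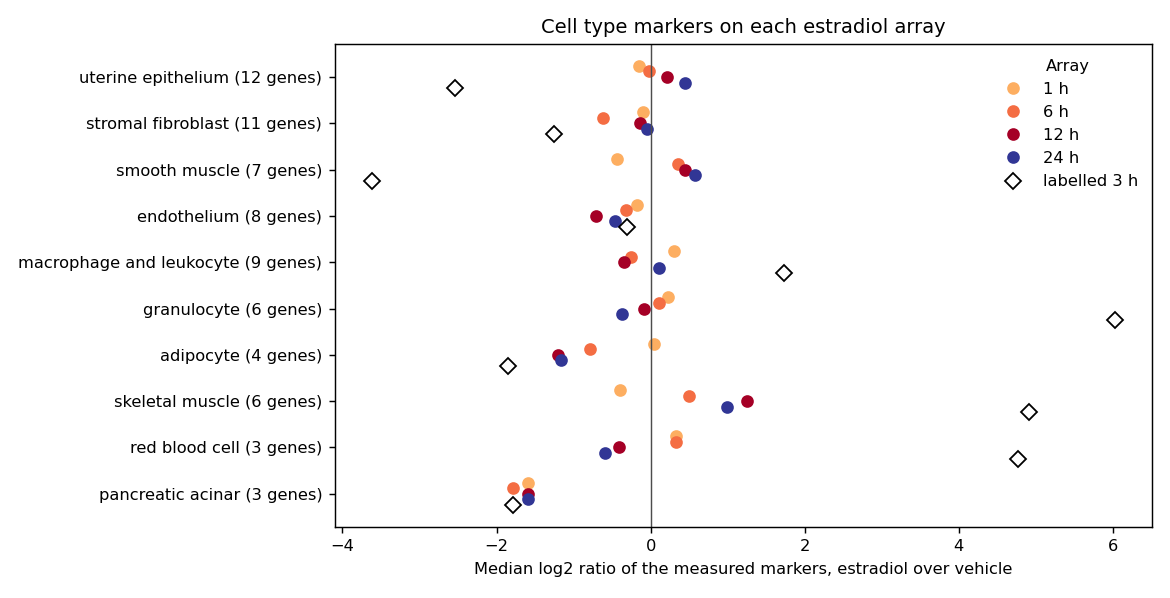
Median log2 ratio (horizontal axis) over the measured markers of each cell type, for each estradiol array over the vehicle array; filled circles are the 1, 6, 12 and 24 h arrays and open diamonds the array labelled 3 h, drawn slightly apart vertically. The diamonds lie at -2.54 for uterine epithelium, -3.62 for smooth muscle, 6.03 for granulocytes and 4.91 for skeletal muscle, far from the circles in the same line.

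Fos, the best known of the Fos subunits and an immediate early gene, was the member with the largest difference from vehicle at 1 h. Its signal, from the probe set 160901_at, was 364 with vehicle, and 1757, 883, 549.8 and 228 at 1, 6, 12 and 24 h after estradiol. The 1 h array was the highest, each later array was lower than the array before it, and the 24 h array was below vehicle. Relative to vehicle, Fos was 4.82-fold higher at 1 h, 2.42-fold higher at 6 h and 1.51-fold higher at 12 h, and 1.60-fold lower at 24 h. Only 4 of 6034 measured genes had a higher ratio at 1 h. At 6 h the difference was less exceptional, since Fos then ranked 236 from the top of 6021 genes. Between consecutive times, Fos was 1.99-fold lower at 6 h than at 1 h, 1.61-fold lower at 12 h than at 6 h, and 2.41-fold lower at 24 h than at 12 h. The 24 h array was 7.71-fold lower than the 1 h array.

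A further probe set of Fos, 161716_at, was far dimmer and gave no usable ratio. Its signal was 23.3 with vehicle, and 71.2, 61.4, 79.6 and 37.5 at 1, 6, 12 and 24 h, all below the floor. Every estradiol array was above vehicle on it, also at 24 h, but signals this low were not read as levels. With the median of the pair of probe sets in place of the brighter, the log2 ratio of Fos would be 1.14 at 1 h and 0.64 at 6 h, against 2.27 and 1.28, because a probe set at the floor enters that median as 0.

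**Figure D2:**
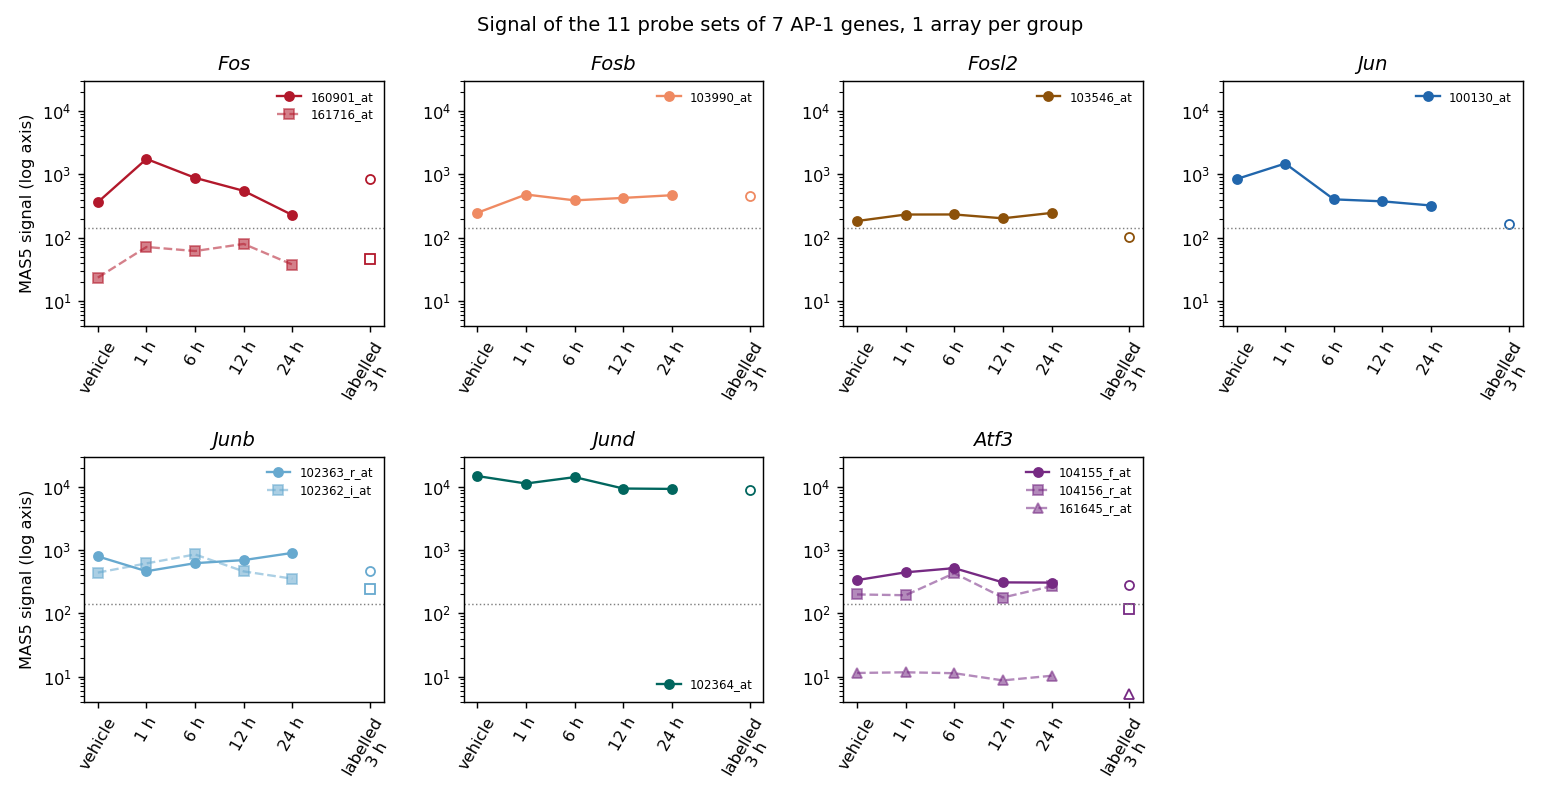
MAS5 signal (log axis) of each of the 11 probe sets of the 7 AP-1 genes, with vehicle and at 1, 6, 12 and 24 h after estradiol, joined by lines, and on the array labelled 3 h as open symbols; the dotted line is the floor of 142.8 and each point is 1 array. Fos and Jun are highest at 1 h (1757 and 1488), and Jun then lies below its vehicle signal of 845 at each later time.

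Fosb, a Fos subunit with a strong activation domain, was 1.57-fold to 1.94-fold above vehicle on the 1, 6, 12 and 24 h arrays. Its signal, from 103990_at, was 248 with vehicle, and 481, 389, 425 and 469 at 1, 6, 12 and 24 h. The vehicle array was the lowest of the 5, and the 4 estradiol arrays lay within 1.24-fold of each other, with no peak at 1 h of the kind seen for Fos. Fosb was 1.94-fold higher than vehicle at 1 h, 1.57-fold at 6 h, 1.72-fold at 12 h and 1.89-fold at 24 h, and so did not reach the 2-fold minimum at any of these times. Since a single vehicle value enters all 4 ratios, they are not 4 separate observations of a difference. The ratio at 1 h ranked 62 from the top of 6034 genes, and that at 24 h ranked 261 of 6070.

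Fosl2, also known as Fra-2, lacks the activation domain of Fos and is expressed late in many cells after Fos has declined. From 103546_at its signal was 183 with vehicle, and 232, 233, 202 and 246 at 1, 6, 12 and 24 h. All 5 values lay within 1.34-fold of each other and not far above the floor, with vehicle the lowest. Its log2 ratios were 0.34, 0.34, 0.14 and 0.43 at 1, 6, 12 and 24 h. The remaining Fos subunit, Fosl1, which is also called Fra-1, was on the array but below the floor throughout, with signals of 10.3 with vehicle and 103, 98.4, 125 and 29.4 at 1, 6, 12 and 24 h.

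Jun is the partner through which Fos binds DNA in the classical AP-1 dimer. It was above vehicle at 1 h, as Fos was, and below vehicle at 6, 12 and 24 h. Of these later times, Fos was below vehicle at 24 h only. As a single vehicle value enters every ratio of Jun, the ratios are not separate observations of a difference. The signal of Jun, from 100130_at, was 845 with vehicle, and 1488, 403, 375 and 322 at 1, 6, 12 and 24 h. The 1 h array was the only estradiol array of these 4 above vehicle, and the 6, 12 and 24 h arrays lay close together, all under vehicle. Jun was 1.76-fold higher than vehicle at 1 h, then 2.09-fold lower at 6 h, 2.25-fold lower at 12 h and 2.62-fold lower at 24 h. At 6 h Jun was 3.69-fold lower than at 1 h, a ratio 55 from the bottom of 6089 genes, whereas the 12 h array was only 1.07-fold lower than the 6 h array and the 24 h array 1.16-fold lower than the 12 h array. Against vehicle, Jun ranked 110 from the top of 6034 genes at 1 h and 78 from the bottom of 6070 at 24 h. Markers of fat cells differed on the same arrays: the summed signal of 4 adipocyte markers was 7762, 4101, 2817 and 2860 at 1, 6, 12 and 24 h, against 7497 with vehicle, with 0, 0, 3 and 2 of the 4 at least 2-fold lower. That of 8 endothelial markers was 6354, 6494, 4520 and 4879, against 6718 with vehicle, with 0, 3, 3 and 2 of the 8 at least 2-fold lower. Of the stromal markers, 4 of 10 measured were at least 2-fold lower at 6 h (Dcn, Lum, Pdgfra and Wt1). At 12 h 3 were (Dcn, Pdgfra and Wt1), and 0 at 1 and at 24 h. On the higher side were Twist2 at 6 h and, of 11 measured, Col1a1, Col1a2 and Col3a1 at 24 h. The summed signal of 7 smooth muscle markers was 28961, 38559, 45543 and 54737 at 1, 6, 12 and 24 h, against 37618 with vehicle. Of all measured genes, 0.381%, 9.1%, 7.55% and 3.82% were at least 2-fold lower at 1, 6, 12 and 24 h. At 6 and 24 h, 6.91% and 3.69% were at least 2-fold higher. The part of the markers in the values of Jun was not tested.

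The ratios of Jun at 6 and 12 h lay inside the range of most genes, while that at 24 h did not. Among genes with a mean signal of 400 to 1600 on the arrays compared, the central 95% of log2 ratios ran from -1.59 to 1.51 at 6 h, from -1.47 to 1.53 at 12 h and from -1.10 to 1.09 at 24 h. The log2 ratio of Jun was -1.07, -1.17 and -1.39 at these times. At 1 h, when the arrays differed least, the same range was -0.59 to 0.63 and Jun was at 0.82, Fos at 2.27. At 6 h the 2-fold minimum for Jun was missed under 4 of the 9 other ways of processing, with log2 ratios no closer to 0 than -0.91, and at 24 h it was met under all 9. Several of the 9 left the ratio of Jun unchanged.

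Junb, a Jun subunit that activates weakly and can hold back Jun, gave different pictures on its 2 probe sets. The suffixes of both mark sequences for which the usual rules gave no full set of unique probes. On the brighter, 102363_r_at, the signal was 796 with vehicle, and 464, 622, 696 and 904 at 1, 6, 12 and 24 h. On the other, 102362_i_at, it was 441 with vehicle, and 617, 854, 461 and 353 at 1, 6, 12 and 24 h. The brighter had its lowest value at 1 h and its highest at 24 h, and the other its highest at 6 h and its lowest at 24 h. At 1 h Junb was thus 1.72-fold lower than vehicle on the brighter probe set and 1.40-fold higher on the other, and at 6 h 1.28-fold lower and 1.94-fold higher. Neither reached 2-fold at any time, and no direction is given for Junb.

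Jund, the Jun subunit present in most resting cells, had a high signal on every array. From 102364_at it was 14841 with vehicle, and 11317, 14273, 9424 and 9296 at 1, 6, 12 and 24 h. The vehicle and 6 h arrays were highest, and the 12 and 24 h arrays lowest and nearly equal. Jund was 1.31-fold lower than vehicle at 1 h, 1.04-fold at 6 h, 1.57-fold at 12 h and 1.60-fold at 24 h, all short of 2-fold. At 12 h its log2 ratio of -0.66 ranked 973 from the bottom of 6025 genes.

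Atf3, a stress-induced Atf subunit that pairs with Jun subunits and as a dimer with itself represses transcription, was highest at 6 h on both probe sets that could be read. On the brighter, 104155_f_at, the signal was 336 with vehicle, and 446, 519, 309 and 306 at 1, 6, 12 and 24 h. On 104156_r_at it was 199 with vehicle, and 194, 431, 178 and 269 at 1, 6, 12 and 24 h. Both were highest at 6 h, and at 12 h both lay a little under vehicle. Atf3 was 1.55-fold higher than vehicle at 6 h on the brighter probe set, short of 2-fold, and 2.17-fold higher on the other. At 12 h it was 1.68-fold lower than at 6 h on the brighter and 2.42-fold lower on the other. At 1 h the brighter was 1.33-fold above vehicle and the other 1.03-fold below, and at 24 h they also lay on opposite sides of it. A further probe set, 161645_r_at, had signals between 8.70 and 11.7 on these 5 arrays, far below the floor. The suffix of 104155_f_at marks probes that may also read related sequences.

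**Figure D3:**
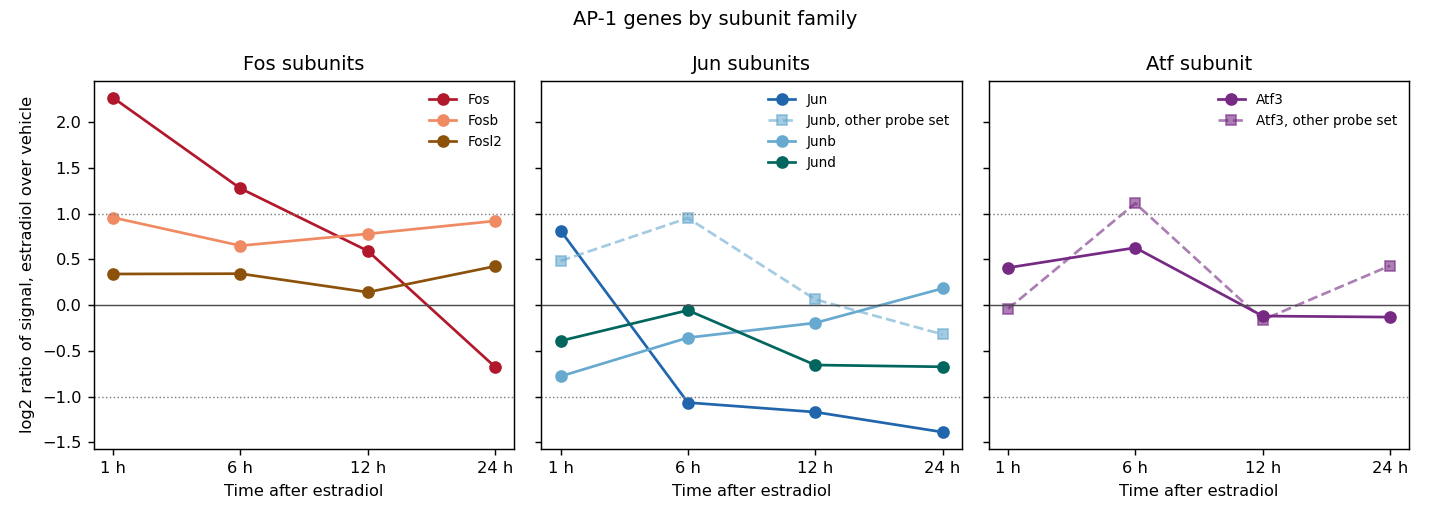
Log2 ratio of signal, estradiol over vehicle, at 1, 6, 12 and 24 h, for the Fos subunits (left), the Jun subunits (centre) and Atf3 (right); solid lines are the probe set that represents a gene, broken lines the other readable probe set of Junb and of Atf3, and dotted lines the 2-fold minimum, each point 1 array over 1 array. All 3 Fos subunits lie above 0 at 1, 6 and 12 h. By the representing probe set, of the Jun subunits only Jun does at 1 h and none at 6 or 12 h. Jund at 6 h is the value (-0.06) that changes sign under other scalings. The median of all measured genes was -0.01, -0.05 and -0.04 at 1, 6 and 12 h.

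Set side by side, the log2 ratios of the Fos and of the Jun subunits overlapped at 1 and 24 h and not at 6 and 12 h, by the brightest probe set of each gene and with the exceptions given here. The log2 ratios of the 3 Fos subunits ran from 0.34 to 2.27 at 1 h, from 0.34 to 1.28 at 6 h and from 0.14 to 0.78 at 12 h, so that all 3 were above vehicle at these times, except that with a reference averaged from the 1 h and vehicle arrays Fos was at -0.54 and Fosl2 at -0.03 at 12 h, and that Fosl2 was at 0 at all 3 times with a floor at the 60th percentile, which lies above its signals. Those of the 3 Jun subunits ran from -0.78 to 0.82 at 1 h, from -1.07 to -0.06 at 6 h and from -1.17 to -0.19 at 12 h, with all 3 below vehicle at 6 and 12 h by the brightest probe set, although Jund at 6 h turned to above vehicle, to at most 0.14, under 4 other ways of processing and Junb did so with the averaged reference, to 0.03 at 6 h and 0.20 at 12 h, and to 0.30 at 6 h with the median of its probe sets. The other probe set of Junb was above vehicle at both times, at 0.95 and 0.06, and at 6 h lay inside the range of the Fos subunits. Lying on either side of vehicle is common, as the median log2 ratio of all measured genes was -0.05 at 6 h and -0.04 at 12 h. Of all measured genes at 6 h, 49.8% were at least as low as Jund, 31.3% as Junb, and 25.7% at least as high as Fosl2. The separation at 6 and 12 h is therefore not read as a result about the families. Atf3 was at 0.41 at 1 h, inside the ranges of both families, at 0.63 at 6 h, inside that of the Fos subunits, and at -0.12 and -0.13 at 12 and 24 h. Its other readable probe set was at -0.04, 1.11, -0.16 and 0.43 at 1, 6, 12 and 24 h. At 24 h the families overlapped, the Fos subunits running from -0.68 to 0.92 and the Jun subunits from -1.39 to 0.18.

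Fos and Jun, both highest at 1 h, lay on opposite sides of vehicle at 6 and 12 h and both below it at 24 h. The fold of Fos over vehicle divided by the fold of Jun over vehicle was 2.74, 5.08, 3.40 and 1.64 at 1, 6, 12 and 24 h. As both folds use the same vehicle array and the same estradiol array, a scaling factor between the arrays cancels in this quotient. It was above 1 at each time and highest at 6 h, when Fos was above and Jun below vehicle. It concerns the change of each gene from vehicle and says nothing of how much Fos there was per Jun.

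Counted at 2-fold, few members stood out, and the counts are read against the share of all measured genes past the same minimum. At 1 h, 1 of 7 members, Fos, was at least 2-fold higher than vehicle and 0 were lower, while 0.928% of 6034 genes were higher and 0.381% lower. At 6 h, Fos was higher and Jun lower, against 6.91% higher and 9.1% lower among 6021 genes. At 12 h only Jun passed, on the lower side, against 6.71% higher and 7.55% lower of 6025 genes. At 24 h it was again Jun alone, lower, against 3.69% higher and 3.82% lower of 6070 genes. The members' median log2 ratio was 0.41, 0.34, -0.12 and -0.13 at 1, 6, 12 and 24 h, against -0.01, -0.05, -0.04 and -0.04 over all measured genes. At 6 and 12 h, where many genes pass 2-fold, and at 24 h, a count of 1 of 7 in a direction is not read as a result about the members.

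Between consecutive times the members at least 2-fold lower were Jun at 6 h relative to 1 h, none at 12 h relative to 6 h, and Fos at 24 h relative to 12 h. The share of all measured genes at least 2-fold lower in these intervals was 7.87%, 1.48% and 2.71%. Fos in the last interval ranked 60 from the bottom of 5987 genes. These intervals share arrays, so a high 1 h value of Jun both raises its ratio to vehicle and lowers the next.

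**Figure D4:**
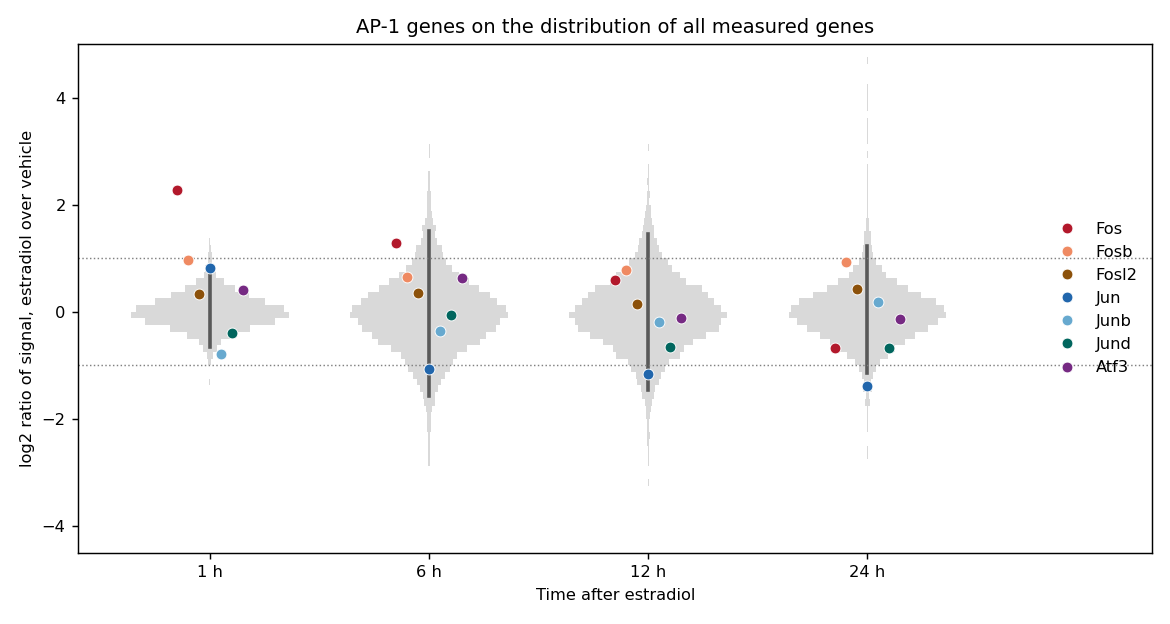
Log2 ratio of signal, estradiol over vehicle, of the 7 AP-1 genes (coloured points, offset sideways for legibility) on the distribution over all measured genes (grey, width proportional to the number of genes) at 1, 6, 12 and 24 h; the dark bar is the central 95% of genes and the dotted lines the 2-fold minimum. At 1 h Fos at 2.27 lies far outside the bar, and Fosb at 0.96, Jun at 0.82 and Junb at -0.78 also lie outside it. The other probe set of Junb was above vehicle at 1 h, at 0.48. Jun at -1.39 lies below the bar at 24 h, while at 6 and 12 h every member lies within it.

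On the array labelled 3 h, on which most epithelial and smooth muscle markers were low, Fos and Jun again lay on opposite sides of vehicle. The signal of Fos there was 843 against 364 with vehicle, or 2.32-fold higher, and that of Jun 164 against 845, or 5.16-fold lower. Fosb was at 457, Junb at 468, Jund at 8851 and Atf3 at 278, and Fosl2 at 104 was below the floor. Of the 7 members, 1 was at least 2-fold higher and 1 lower, against 11.4% higher and 13% lower of 6210 genes. These values describe that array and were not read as a time of the series.

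The wider network of AP-1 was described with lists chosen by function. Of 23 other basic leucine zipper factors that pair with or resemble AP-1, 19 were on the array, and 1 of 14 measured was at least 2-fold higher at 1 h, 3 of 17 at 6 h and 2 of 15 at 12 h, against 0.928%, 6.91% and 6.71% of all genes. None was lower at these times, against 0.381%, 9.1% and 7.55% of all genes. At 24 h 0 were higher and 1 of 14 lower, against 3.69% and 3.82% of all genes. Counts of 0 or 1 on the lower side of so short a list are not read as a result about it. Atf4, the activator of the amino acid stress response, was at 1309 with vehicle, and 1301, 5914, 3072 and 1435 at 1, 6, 12 and 24 h, and so 4.52-fold above vehicle at 6 h. Atf5, related to Atf4, was at 1305, 824, 4421, 4883 and 1250 on the same arrays, 3.74-fold above vehicle at 12 h. Unlike Fos, both were near or below vehicle at 1 h and highest at 6 or 12 h. Cebpb, an early response factor that can pair with Fos and Atf subunits, was at 1026, 2854, 2425, 1293 and 1031, 2.78-fold above vehicle at 1 h. Ddit3, a stress factor also called CHOP, was 2.14-fold lower at 24 h, at 181 against 386 with vehicle. The median of this list was 0.00, 0.23, 0.04 and -0.14 at 1, 6, 12 and 24 h.

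Kinases and factors that switch AP-1 genes on were also counted. Of 25 listed MAP kinases, their activators and the serum response partners, 17 were on the array, and 0 of the 13 or 14 measured at a time were 2-fold from vehicle in either direction at 1, 6, 12 or 24 h, with medians between -0.20 and 0.08. As few genes of all passed 2-fold at 1 h (0.928% higher, 0.381% lower) and at 24 h (3.69% and 3.82%), and 6.71% to 9.1% in a direction at 6 and 12 h, a count of 0 in so short a list is not read as a result about it. MAP kinases are governed mainly by phosphorylation, which arrays do not read. Of the MAP kinase phosphatases, which shut these kinases off, 6 of 11 were on the array, and 1 of 4 measured was past 2-fold, on the higher side, at 1 h, against 0.928% of all genes, and 0 at 6, 12 or 24 h. It was Dusp1, at 732 with vehicle, and 1560, 1101, 803 and 476 at 1, 6, 12 and 24 h, 2.13-fold above vehicle at 1 h. Its order of arrays is that of Fos: highest at 1 h, then lower at each time, and below vehicle at 24 h.

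Among 16 genes on the array for proteins that bind, modify or degrade AP-1 subunits, 15 were measured. None was 2-fold from vehicle at 1 h, 1 was higher at 6 h, 1 lower at 12 h and 2 lower at 24 h. Of all measured genes 6.91% were higher at 6 h, 7.55% lower at 12 h and 3.82% lower at 24 h. At 6 and 12 h, 1 of 15 is thus near the share of all genes. At 1 h, 0.928% of all genes were higher and 0.381% lower. Men1, whose product menin binds Jund and represses its activity, was at 528 with vehicle, and 378, 290, 121 and 217 at 1, 6, 12 and 24 h. The 12 h value is under the floor, so Men1 was at least 3.69-fold lower there, and 2.43-fold lower at 24 h. Crebbp, the acetyltransferase CBP that Fos and Jun recruit, was 2.41-fold lower at 24 h, at 395 against 953 with vehicle. Cops5, known as Jab1 for its binding to Jun, was 2.02-fold higher at 6 h, at 1125 against 558 with vehicle.

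Of 27 listed genes with known AP-1 sites, 23 were on the array and 10 to 14 measured at a time. The numbers at least 2-fold higher were 1, 2, 2 and 2 at 1, 6, 12 and 24 h, against 0.928%, 6.91%, 6.71% and 3.69% of all genes. None was lower, against 0.381%, 9.1%, 7.55% and 3.82% of all genes. The list's median was 0.05, 0.16, 0.28 and 0.43. Timp1, an inhibitor of matrix metalloproteinases, was at 347 with vehicle, and 769, 732, 1806 and 977 at 1, 6, 12 and 24 h, at least 2-fold above vehicle at all 4 times and highest, 5.21-fold, at 12 h. Vegfa, the main growth factor of blood vessels, was 4.57-fold higher at 6 h, at 1047 against 229 with vehicle. Flg, filaggrin of keratinising epithelium, was at 1280 at 24 h against 106 with vehicle, which is below the floor, and so at least 8.97-fold higher. The matrix metalloproteinase Mmp3, a textbook AP-1 target, was below the floor on every array, as were Il6, Ivl, Mmp10, Plau and Ptgs2. All of these genes have other regulators, and their relation to the AP-1 subunits was not tested.

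Of genes that respond to handling and heat, 6 of the 10 measured passed 2-fold on the higher side at 6 h, when Atf3 was highest, against 6.91% of all genes. The 6 were Hspa1b, Hspa8, Hsph1, Ier2, Ier3 and Nr4a1. Hspa1a, Dnajb1, Zfp36 and Ddit4, of the same list, did not pass at 6 h. All 11 genes of this list were on the array. At 1, 12 and 24 h 1, 1 and 0 of them were at least 2-fold higher, against 0.928%, 6.71% and 3.69% of all genes. On the lower side was 1 gene, Ddit4 at 12 h, against 7.55% of all genes. The list's median was 0.20, 1.24, 0.50 and 0.16 at 1, 6, 12 and 24 h. Hsph1, a large heat shock protein, was at 904 with vehicle, and 1027, 4222, 2944 and 805 at 1, 6, 12 and 24 h. Ier3, an immediate early gene of survival signalling, was 3.69-fold higher at 6 h, at 3423 against 928 with vehicle. Hspa1b, the inducible Hsp70, was 3.05-fold higher at that time and Hspa8, its constitutive relative, 2.98-fold. The part of handling or stress in the 6 h values of the members was not tested.

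The genes whose pattern lay nearest to that of Fos and Jun were sought over the 4 log2 ratios from vehicle among 6561 other genes, by Euclidean distance. Nearest to Fos were Rasd1, a small G protein, at a distance of 0.84, Errfi1, an inhibitor of the EGF receptor, at 0.88, and Ackr3, a scavenging chemokine receptor, at 0.93. Errfi1 was at 856 with vehicle, and 3724, 2291, 867 and 829 at 1, 6, 12 and 24 h, also highest at 1 h. Nearest to Jun were Prdm1, the transcriptional repressor Blimp-1, at 0.47, Mup3, a major urinary protein of a family with near-identical copies, at 0.62, and Vamp4, a protein of vesicle fusion, at 0.77. Prdm1 was at 524 with vehicle, and 778, 283, 203 and 247 at 1, 6, 12 and 24 h, and so above vehicle at 1 h and below it from 6 h on. None of the other members was among the near neighbours, the nearest to Fos being Atf3 at rank 213 and Fosb at rank 219, and the nearest to Jun being Jund at rank 1466. All distances share the vehicle array.

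The direction of Fos and Jun held under other scalings and floors, apart from the size of the fold. The choice of probe set could not change it, since Jun has a single probe set and the dim one of Fos enters at the floor. The log2 ratio of Fos at 1 h lay between 1.14 and 2.34 over 8 alternatives and was at least 2-fold in all 8. That of Jun at 24 h lay between -1.80 and -1.16 over 9 alternatives. The other floors and the omission of the array labelled 3 h left Fos at 1 h unchanged at 2.27. The floor at the 20th percentile, the median of probe sets and that omission left Jun at 24 h unchanged at -1.39. Alternatives that leave a value unchanged are no separate support for it. Atf3 at 6 h reached 2-fold only where the median of its probe sets was used, at 1.11, and Fosb reached it under none at 1, 6, 12 or 24 h. Fos at 24 h was -0.68, and -0.05 with a floor at the 60th percentile, which lies above its signal there. A reference made by averaging the 1 h array with the vehicle array lowers the ratios of genes that were high at 1 h by construction, and turned Fos at 12 h to -0.54.

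**Figure D5:**
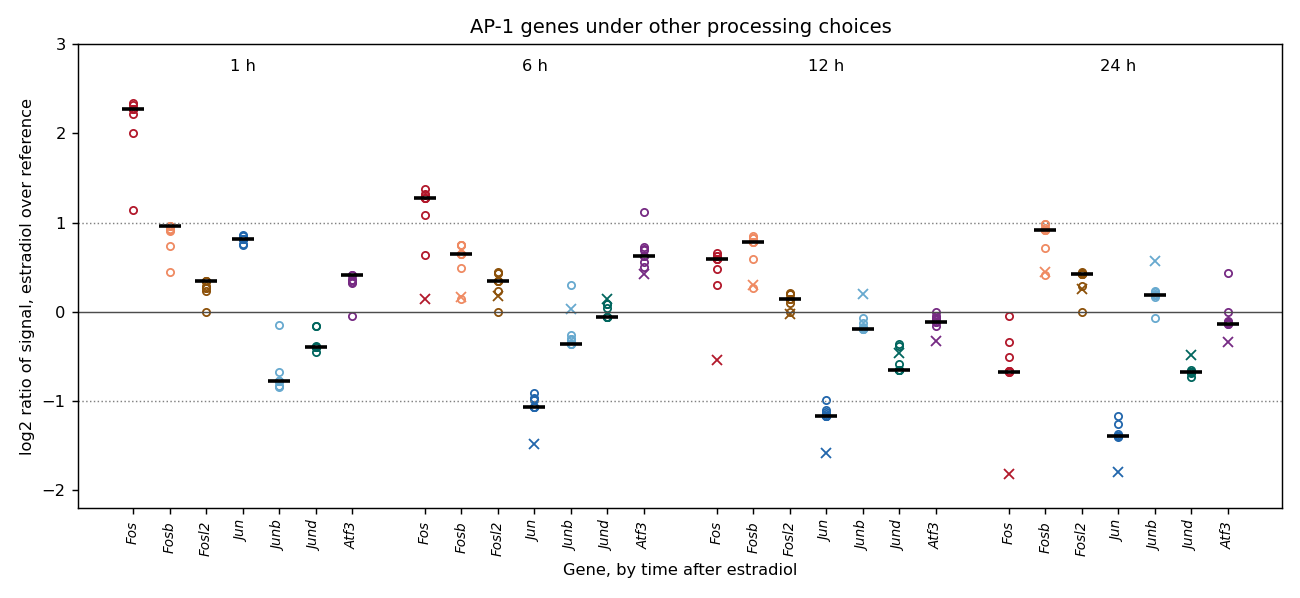
Log2 ratio of each AP-1 gene at 1, 6, 12 and 24 h as reported (black bar) and under the other ways of processing (open circles: other floors, scalings or choice of probe set; crosses: a reference averaged from the 1 h and vehicle arrays); dotted lines mark 2-fold. Fos at 1 h stays above the upper line and Jun at 24 h below the lower line throughout, while the crosses set Fos apart at 6, 12 and 24 h.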

How the data were processed

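Total RNA of pooled whole uteri was read on 6 Affymetrix U74Av2 arrays, 1 per group, from 20 µg of RNA as biotin-labelled cRNA, per the labels' protocols. The authors deposited MAS5 signal intensity on a linear scale, 1 value per probe set and array, per the submitters' processing notes, which name no version. The deposited values already shared a 2% trimmed mean of 500.2 to 500.3 over all probe sets, without detection calls. Of 12488 probe sets, 66 controls were left out. GEO's platform annotation gave 1 symbol for 10833 of the remaining 12422, several for 396 and none for 1193, and 10817 were matched by gene identifier to RefSeq of GRCm38.p6.

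The arrays were rescaled to a common 2% trimmed mean, values under the 40th percentile (142.8) were raised to it, and log2 was taken. A gene is its probe set of highest mean log2 signal and counts as measured in a comparison if either array reached the floor. With 1 array per group no test was run, and that number limits the precision. Named are all 7 members, of each list up to 4 genes of largest ratio past 2-fold, and the 3 genes nearest to each member past 2-fold. Mmp3 and the other genes below the floor, Fosl1, Ddit4 and the markers named were added after their values were seen. So were Ier2, Nr4a1, Hspa1a, Dnajb1 and Zfp36. The members and lists were chosen with earlier results of these data known. The recovery of known fold changes was checked on simulated data per probe set and for bright probe sets only, and the counting of genes was not. The vehicle signals of Fos, Fosb, Fosl2 and Atf3 were lower than those of the probe sets checked. A further time of 0.5 h in the protocol was not analysed here. Python 3.11.15, numpy 2.4.6, pandas 2.3.3 and matplotlib 3.10.9 were used. Other floors, a pseudocount, other scalings, the median of a gene's probe sets, a reference averaged from the 1 h and vehicle arrays and the omission of the array labelled 3 h were tried.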

Additional observations from a re-analysis of the deposited data

Results flagged for a closer look

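Fos and Jun lay on both sides of vehicle along the time course. The log2 ratio of Fos over vehicle was 2.27 at 1 h and -0.68 at 24 h, and that of Jun was 0.82 at 1 h and -1.39 at 24 h, each from 1 array per group. The opposite signs at the early and the late time drew attention to both genes. The difference between the times was not tested, since the groups have no replicates, and both ratios of a gene share the vehicle array.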

How the results depend on the processing

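Some of the alternatives left the ratio of Fos at 1 h unchanged, as given above. The number of members at least 2-fold from vehicle at 1 h, 1 (Fos), was the same under all 8 alternatives run for it. At 6 h it was 2 (Fos and Jun), and 1 with a pseudocount of 100 in place of the floor, with arrays scaled to the same median and with quantile normalization with or without the array labelled 3 h, where Jun missed, and 1 with a reference averaged from the 1 h and vehicle arrays, where Fos missed. With the median of a gene's probe sets the count at 6 h was 2, but with Atf3 in the place of Fos. At 12 h it was 1 (Jun), and 0 with the pseudocount. At 24 h it was 1 (Jun), and 2 with the mean reference, where Fos joined. On the array labelled 3 h it was 2, 3 with arrays scaled to the same median, where Fosb joined on the higher side, and 1 with the median of probe sets and with the mean reference, where Fos missed. The misses of Fos under the mean reference follow from its high 1 h signal, and those under the median of probe sets from its dim probe set, which enters at the floor. The cause of the other misses was not tested. Of 245 values of single members at 1, 6, 12 and 24 h under 9 alternatives, 8 moved by 1.5-fold or more, 6 of them of Fos and 2 of Junb, whose log2 ratio with the median of probe sets was -0.15 at 1 h and 0.30 at 6 h. Leaving the array labelled 3 h out of all steps, an alternative chosen after seeing the data, changed no count. No replicate could be left out, and no paired analysis was possible because each group has 1 array. Signals near the floor, as of Fosl2, limit what can be read.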
